A study of Mus musculus with 15 samples.

Results

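The cytosolic ribosomal protein genes were followed in inflamed mouse lungs after house dust mite (HDM) extract, a model of asthma, with or without mesenchymal stem cells (MSCs). Members were the protein-coding genes whose symbol is Rpl or Rps followed by digits and an optional a, x or l, together with Rplp0, Rplp1, Rplp2 and Rpsa. Pseudogenes and the Rps6k kinases were left out. The rule gave 80 genes of the 55421 in the table, 49 of the large (60S) subunit and 31 of the small (40S) subunit, and used no measured value. Of the 80, 78 passed the filter on low counts, among 19562 genes tested. Rpl10l had no count in any library and Rpl39l was too low to test.

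All 15 mice were female, wild-type C57BL/6, and each received 10 µg of HDM extract intranasally 5 times a week for 2 weeks. Lung lobes were taken on day 15 for stranded total RNA sequencing. HDM alone (5 mice) was compared with HDM plus adipose MSCs instilled intranasally on day 6 (5 mice, labelled long-term) or on day 13 (5 mice, labelled short-term). The labels give neither the age of the mice nor the source animal of the MSCs, and the saline-treated mice of the design were not analysed here, so every group carries HDM inflammation. Each library comes from a separately titled mouse, and p-values measure the spread between these libraries. Library totals ran from 17182599 to 44201637 counts.

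A ribosome is built from ribosomal RNAs and a fixed set of ribosomal proteins, most of which are present in a single copy per particle. Their mRNAs start with a cytosine followed by a run of pyrimidines, the 5′ terminal oligopyrimidine (TOP) motif, through which mTOR signalling controls their translation as a group. Cells that grow, divide or secrete make more ribosomes, and leukocytes that are activated in inflamed lung do so as well. In bulk lung RNA, a smaller number of cells of a type and less RNA per cell cannot be told apart.

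Promoter sequence was examined because the members are known for shared start-site features. RefSeq windows on GRCm38.p6, from 250 bases before to 50 bases after the annotated start, were found for 60 members (72 windows). The pyrimidine string CTTTCC, searched on the transcribed strand, occurred in 38.9% of the member windows and in 14.1% of all 32851 windows. CCGGAAG, a core of ETS-family binding sites searched on both strands, occurred in 36.1% and 8.86%. AAGATGGC, a core of the YY1 site searched on both strands, occurred in 9.72% and 2.75%, whereas TATAAA, searched on the transcribed strand, occurred in 6.94% and 8.32%. The windows of 40 bases before to 20 bases after the start are printed for the 5 members that fell in the day 13 group and have a window, and for Rplp2 and Rps23, which lay on the other side in the day 6 group. Capitals mark CTTTCC on the printed strand and CCGGAAG on either strand.
Rpl28, chr7:4792925-4792984, plus strand: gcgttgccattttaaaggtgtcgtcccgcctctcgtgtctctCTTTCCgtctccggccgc
Rps28, chr17:33824543-33824602, minus strand: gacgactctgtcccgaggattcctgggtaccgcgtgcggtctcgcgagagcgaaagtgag
Rps26, chr10:128626487-128626546, minus strand: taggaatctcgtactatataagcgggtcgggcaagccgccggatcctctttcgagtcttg
Rpl38, chr11:114668540-114668599, plus strand: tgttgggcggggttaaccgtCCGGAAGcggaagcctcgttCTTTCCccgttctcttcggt
Rpl41, chr10:128549149-128549208, minus strand: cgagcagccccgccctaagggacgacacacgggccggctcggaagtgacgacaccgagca
Rplp2, chr7:141447611-141447670, plus strand: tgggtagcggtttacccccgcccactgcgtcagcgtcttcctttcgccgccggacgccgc
Rps23, chr13:90923082-90923141, plus strand: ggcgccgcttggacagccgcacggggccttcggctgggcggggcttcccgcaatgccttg
Rpl28 and Rpl38 carried CTTTCC in the printed stretch, and Rpl38 carried CCGGAAG too. The other 5 carried neither there, which says only that these letters are absent from these stretches. In the whole window, from 250 bases before to 50 bases after the start, Rps26, Rpl41 and Rplp2 each held 1 CCGGAAG. Rps28 and Rps23 held neither string in that window.

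The 80 members together took 1.64 ± 0.124% of all counts in HDM, 1.76 ± 0.102% in the day 6 group and 1.59 ± 0.147% in the day 13 group (mean ± SD, n = 5 each). Without day 13 replicate 3 the last value was 1.63 ± 0.145% (n = 4). The ranges of the 3 groups overlapped, from 1.49 to 1.80% in HDM, from 1.58 to 1.85% in the day 6 group and from 1.45 to 1.82% in the day 13 group. In the day 13 group, replicates 1 and 5 had only 6 and 4 of the 78 tested members above their own mean over the 15 libraries, and replicate 4 had 65.

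**Figure D1:**
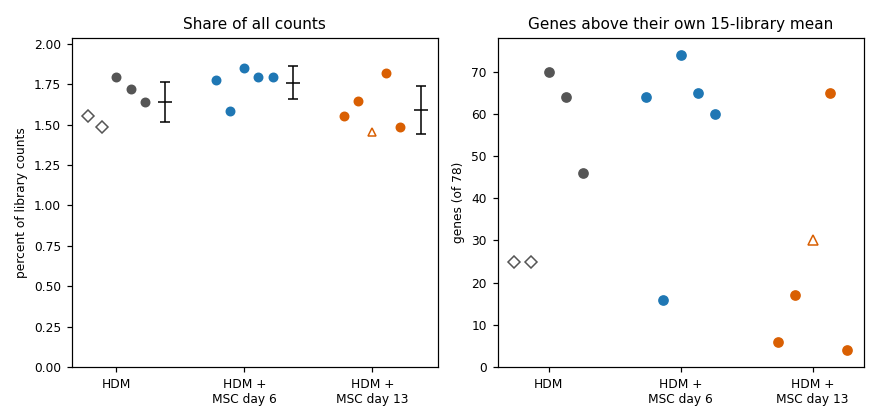
Share of all counts taken by the 80 ribosomal protein genes (left, percent) and number of the 78 tested genes above their own mean over 15 libraries (right), by group. Each point is a library, bars are mean ± SD (n = 5), open diamonds are HDM replicates 1 and 2 and the open triangle is day 13 replicate 3; the shares of the groups overlap, while day 13 replicates 1 and 5 have 6 and 4 genes above their mean.

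Levels of single members spanned a wide range. In CPM (counts scaled to a common library size) per kilobase of merged exons, averaged over the 15 libraries, the level was highest for Rplp1 (543), Rps15 (439), Rpl4 (389), Rpl17 (338), Rplp0 (298) and Rpl8 (285). Merged exons cover all annotated transcripts of a gene, so levels per kilobase and their order, here and below, depend on the annotation. Rps27 has 1043 bases of merged exons and a main transcript of 345, where Rplp1 has 499 of both. Rplp1 and Rplp0 form part of the stalk that recruits elongation factors, Rpl4 lines the tunnel through which the new protein leaves, and Rps15 lies in the head of the small subunit. At the other end, Rpl24 was at 0.376 CPM per kilobase, Rps10 at 0.951 and Rpl13a at 7.69, although each is a core subunit. On GRCm38 in the GENCODE annotation, 47.0% of the exon bases of Rpl24 lie on the same strand in exons of Gm28037, 20.6% of those of Rps10 in RPS10-NUDT3 and 32.8% of those of Rpl13a in Gm45713. The rule by which reads in shared exons were counted is not stated, so the values of these 3 genes are uncertain. The table also has 300 rows whose symbol starts with Rpl or Rps and ends in -ps and an optional number. Of these, 6 are annotated protein coding. Pseudogenes under other symbols, such as Rps4l, are not among them. The summed level of the 300 rows was 28.9 to 75.0 CPM, against 14148 to 18579 CPM for the members. The 75.0 CPM were in day 13 replicate 3, and the other 14 libraries had at most 45.7 CPM.

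Tissue-restricted and stress-linked copies were much lower than their partners. Rpl10l, the testis copy of Rpl10, had 0 counts, which allows at most 0.0699 to 0.188 CPM per library (3 counts, counting error only). Rpl39l, the testis copy of Rpl39, had 45 counts in 12 of 15 libraries, 0.129 CPM per kilobase against 36.2 for Rpl39. Rpl3l, the copy of heart and skeletal muscle, was at 0.334 CPM per kilobase against 94.5 for Rpl3, which lies near the peptidyl transferase centre. Its level in CPM was 0.563 ± 0.111 in HDM, 0.620 ± 0.195 in the day 6 group and 0.461 ± 0.183 in the day 13 group (n = 5 each). Cardiac muscle markers summed to 103 to 636 CPM over the 15 libraries, with 6 of 6 tested, and their part in the Rpl3l level was not tested. Rps27l, a p53-responsive copy of Rps27, was at 36.05 CPM per kilobase against 156 for Rps27. Rps4l, annotated as a transcribed processed pseudogene and so no member, had 6.63 to 19.1 CPM.

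HDM replicates 1 and 2 and day 13 replicate 3 carried a ribosomal protein profile that the other 12 did not show. Rps14, a platform protein of the small subunit whose loss underlies the 5q- syndrome in humans, had 44.8, 44.3, 195, 185 and 163 CPM in HDM replicates 1 to 5. It had 176, 146, 188, 174 and 156 CPM in the day 6 group and 136, 140.4, 52.1, 154 and 129.9 CPM in the day 13 group. Those 3 libraries were therefore the lowest of the 15 by a wide margin, and the SD of log2 CPM over all libraries was 0.76 for Rps14 against a median of 0.21 for the tested members. Rpl13 followed, with 74.9 and 68.2 CPM in HDM replicates 1 and 2 and 71.7 CPM in day 13 replicate 3, against 145 to 187 CPM in the other 12. Rplp1 had 195 and 154 CPM in those HDM libraries and 145 CPM in day 13 replicate 3, and 250.1 to 336 CPM elsewhere. Other members went the opposite way. Rpl23, which can bind the p53 regulator Mdm2, had 638, 708 and 579.7 CPM in the same 3 libraries and 347 to 439 CPM in the others. Rps4x, the X-linked small-subunit protein, had 506, 531 and 476 CPM there and 315 to 401 CPM in the others.

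**Figure D2:**
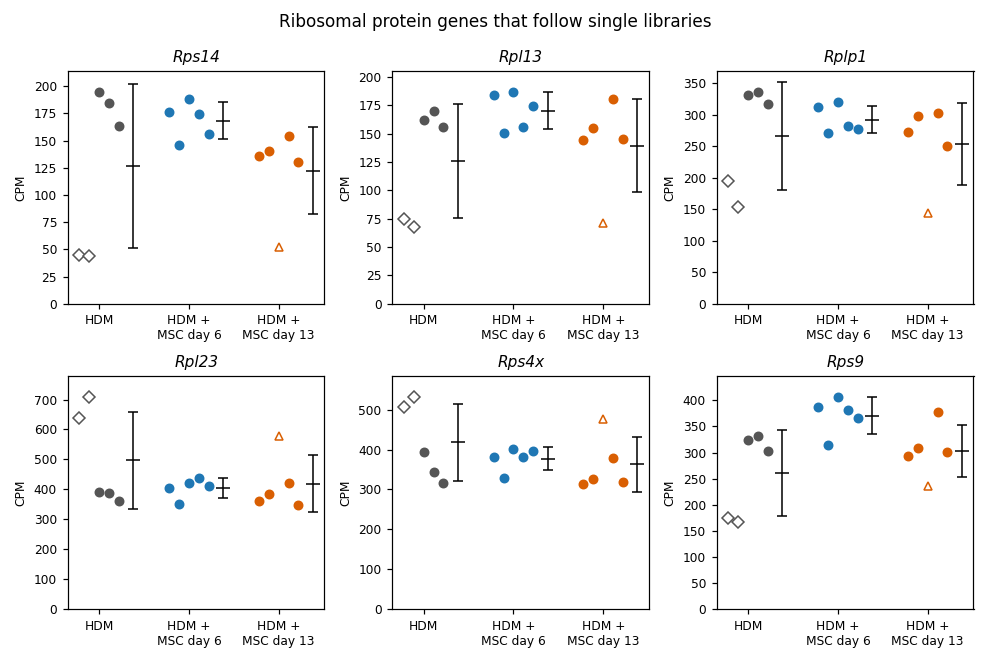
Level in CPM of 6 ribosomal protein genes in every library, by group, with mean ± SD (n = 5). Open diamonds are HDM replicates 1 and 2 and the open triangle is day 13 replicate 3; these lie low for Rps14, Rpl13, Rplp1 and Rps9 and high for Rpl23 and Rps4x.

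The profile involved more members than those named above, but not the whole set. Rpl37, for example, lay 0.01, 0.0 and 0.0 log2 units from its group median in the 3 libraries. In HDM replicates 1 and 2 and day 13 replicate 3, 23, 23 and 17 of the 78 tested members lay more than 0.5 log2 units from the median of their own group, against 0 or 1 in each of the other 12 libraries. The share of all tested genes past that limit is not given here. In these 3 libraries the median absolute deviation from the group median was 0.27, 0.28 and 0.20 for the members. Over all tested genes it was 0.18, 0.20 and 0.40. Members therefore deviated less than tested genes in general in day 13 replicate 3, and more in HDM replicates 1 and 2. Across the 78 members, deviations from the group median in day 13 replicate 3 correlated with those in HDM replicate 1 at r = 0.815 (rho = 0.771) and with those in HDM replicate 2 at r = 0.801 (rho = 0.794). These are correlations across genes, which are not independent replicates. The other 73 pairs of libraries from different groups gave r from -0.713 to 0.601, with a median of 0.015, and over all 19562 tested genes the same 2 pairs gave 0.320 and 0.384, against -0.264 to 0.348 for the other 73. Base composition moved with it: tested protein-coding genes whose main transcript has at least 55% G and C had median deviations of -0.25, -0.30 and -0.47 in the 3 libraries, and the 14 members of that class -0.38, -0.40 and -0.41. Genes under 45% G and C instead had 0.10, 0.13 and 0.21, while the 4 members of that class had -0.28, -0.26 and 0.07. In HDM replicates 1 and 2 the members' median was below 0 in all 4 classes of G and C content, and in day 13 replicate 3 in the highest class and in no other. In the other 12 libraries the deviations of genes of the highest class lay between -0.05 and 0.09. Day 13 replicate 3 also held 2995 CPM of thymocyte markers, against at most 28.1 CPM in the others, and 10517 CPM of lung tissue markers, against at least 16924. The part of base composition and of these cells in the ribosomal protein profile was not tested, and each comparison is given with and without these libraries.

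**Figure D3:**
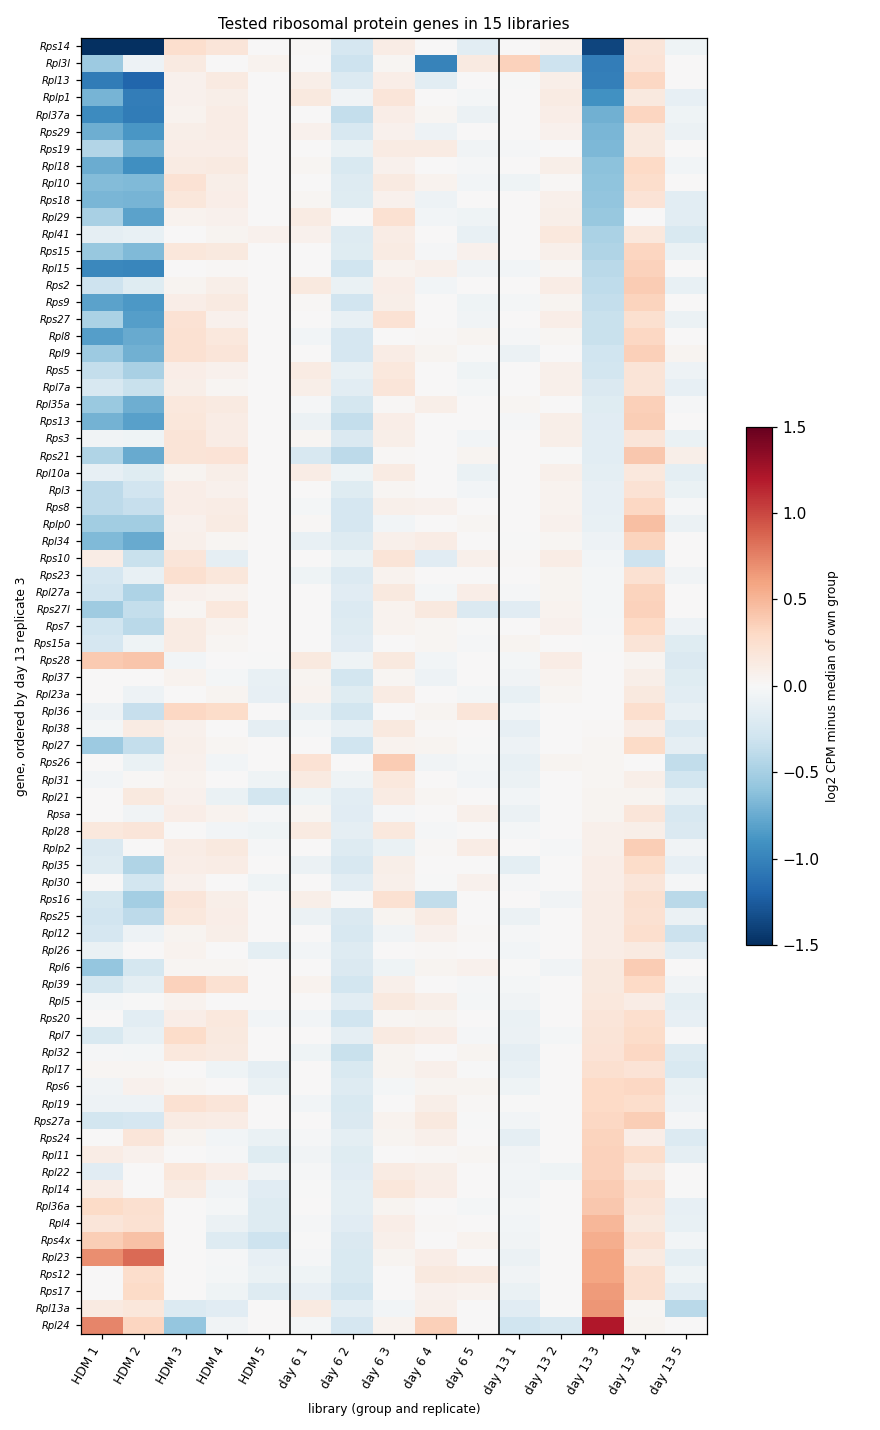
Deviation of tested ribosomal protein genes (rows, ordered by day 13 replicate 3) from the median log2 CPM of its own group, for 15 libraries (columns; black lines separate HDM, day 6 and day 13). Blue is below and red above the group median, with colours capped at 1.5; HDM replicates 1 and 2 and day 13 replicate 3 share the pattern of low Rps14, Rpl13 and Rplp1 and high Rpl23.

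The comparison of MSCs on day 13 with HDM alone asks what late MSCs do to the inflamed lung. With all 15 libraries, 6 of 78 tested members fell and 0 rose. 5 of them were Rps28 and Rps26, which sit beside the channel where mRNA leaves the small subunit, and Rpl28, Rpl38 and Rpl41 of the large subunit. The 6 make 7.69% of the members, where 2.89% of all tested genes were called lower and 1.9% higher (edgeR quasi-likelihood test, Benjamini-Hochberg adjusted p under 0.05). At an unadjusted p under 0.05, 15 members were lower (19.2%, against 11.5% of all tested genes) and 2 higher (2.56%, against 12.2%). DESeq2 called 11 members lower (14.1%) and 0 higher, where it called 6.57% of all genes lower and 3.66% higher. Limma voom called 17 lower (21.8%) and 1 higher (1.28%), where it called 5.99% of all genes lower and 6.34% higher. The median log2 fold change of the members was -0.06 and that of all tested genes 0.03, with 54 members below 0 and 24 above. Of all tested genes 45.8% lay below 0.

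Rps28 (ENSMUSG00000067288, GRCm38 chr17:33819027-33824562) had 211, 214, 156, 159.9 and 159 CPM in HDM and 117, 129.8, 119.7, 123 and 103 CPM in the day 13 group. Every day 13 library lay below every HDM library, and the 3 HDM libraries outside replicates 1 and 2 still lay above all of them. The fall was 0.60 on the log2 scale (SE 0.10, edgeR adjusted p = 0.0109), from 179.9 ± 29.7 to 119 ± 9.91 CPM (n = 5 each). Rpl28 (ENSMUSG00000030432, chr7:4792874-4795066), a large-subunit protein that budding yeast lacks, had 299, 304, 269, 261 and 258 CPM in HDM and 198, 202, 212, 215 and 173 CPM in the day 13 group. It fell by 0.48 (SE 0.08, edgeR adjusted p = 0.0109), with no overlap. Both kept their calls in each of the 15 fits without a single library, at adjusted p of at most 0.0448. Both lost them when only the 10 libraries compared were fitted (edgeR adjusted p = 0.0790 for Rps28 and 0.0784 for Rpl28). Without HDM replicates 1 and 2 Rpl28 was at -0.38 and narrowly missed the call (edgeR adjusted p = 0.050011).

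Rps26 (ENSMUSG00000025362, chr10:128624534-128626747), a gene mutated in some patients with Diamond-Blackfan anaemia, had 289, 268, 301, 279.7 and 288 CPM in HDM and 204, 226, 225, 221 and 171 CPM in the day 13 group. HDM replicates 1 and 2 did not stand apart for this gene, and the groups did not overlap. It fell by 0.45 (SE 0.10, edgeR adjusted p = 0.0236) and lost its call without day 13 replicate 5 (adjusted p = 0.0632). Rpl38 (ENSMUSG00000057322, chr11:114668524-114672331), whose loss in mice disturbs translation of Hox mRNAs and the pattern of the skeleton, had 80.6, 89.9, 85.8, 82.2 and 74.9 CPM in HDM and 61.3, 66.8, 67.9, 72.1 and 57.7 CPM in the day 13 group. The groups lay close but did not overlap, and Rpl38 fell by 0.34 (SE 0.08, edgeR adjusted p = 0.0238), a call lost without HDM replicate 2 or day 13 replicate 5 (adjusted p of at most 0.0688). Rpl41 (ENSMUSG00000093674, chr10:128548114-128549305), a very short peptide at the interface of the subunits, had 206, 209.5, 227, 233 and 237 CPM in HDM and 175, 195, 127, 196 and 149 CPM in the day 13 group. Its fall of 0.40 (SE 0.11, edgeR adjusted p = 0.048) was lost in 13 of the 15 fits that left out a library, with adjusted p of at most 0.119. Day 13 replicate 3 was its lowest library.

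**Figure D4:**
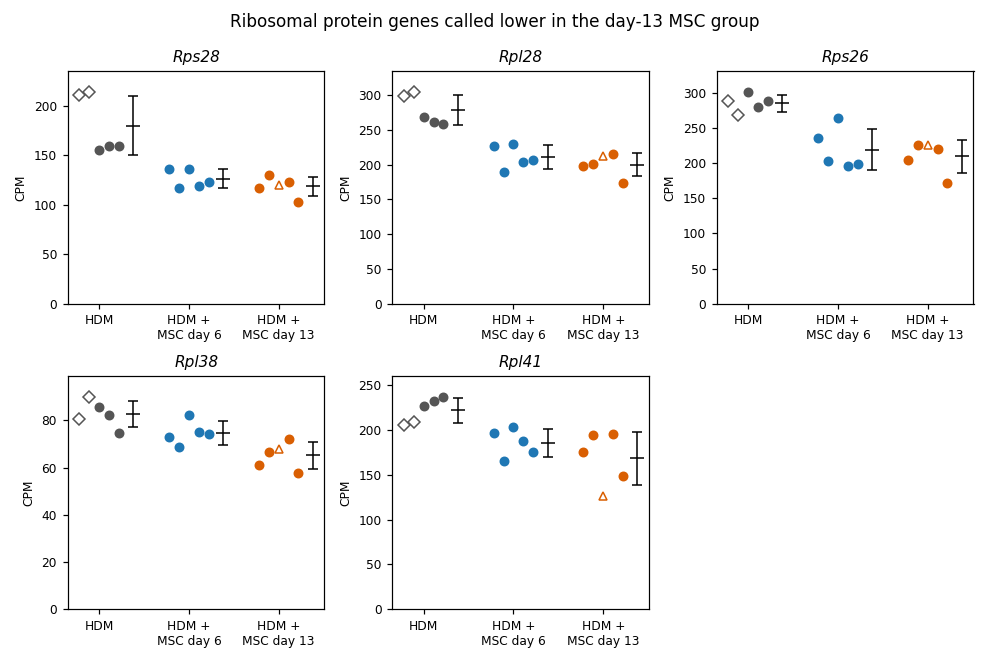
Level in CPM of 5 ribosomal protein genes called lower in the day 13 group, in every library, with mean ± SD (n = 5). Open diamonds are HDM replicates 1 and 2 and the open triangle is day 13 replicate 3; for all 5 genes every day 13 library lies below every HDM library.

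Counting only members whose groups did not overlap, 7 lay lower in the day 13 group, Rpl17 and the 6 that were called, and 0 higher. The 7 are 8.97% of the members, where 3.73% of all tested genes lay lower and 2.52% higher in this way. Rpl17, a tunnel-exit protein of the large subunit, had 477 to 534 CPM in HDM and 339.7 to 468 CPM in the day 13 group, with a log2 fold change of -0.34 (SE 0.10, edgeR adjusted p = 0.0542).

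Without day 13 replicate 3, 10 members fell (12.8%, where 3.36% of all tested genes were lower and 3.23% higher) and 0 rose. Beside the same 6 these included Rpl17 at -0.38 (edgeR adjusted p = 0.0195), Rpl4 at -0.36 (0.0329) and Rps24, another Diamond-Blackfan gene, at -0.28 (0.0464). For Rpl4, day 13 replicate 3 had 944 CPM and the other day 13 libraries 621 to 741 CPM, against 743 to 998 CPM in HDM. Without HDM replicates 1 and 2, 2 members were lower (2.56%, where 0.404% of all tested genes were lower and 0.509% higher): Rps28 at -0.40 (adjusted p = 0.0433) and Rps27 at -0.64 (adjusted p = 0.0376). Rps27 had 149 and 117 CPM in HDM replicates 1 and 2, 207 to 239 CPM in the other HDM libraries and 111 to 166 CPM in the day 13 group, and with all libraries it was at -0.40 (SE 0.16, adjusted p = 0.143). Without all 3 libraries, 18 members were lower (23.1%, where 6.68% of all tested genes were lower and 4.83% higher), 0 were higher and the median was -0.17. Rps14, at -0.04 with all libraries (SE 0.40, adjusted p = 0.963), was then at -0.37 (SE 0.09, adjusted p = 0.0199). This set of 3 libraries was chosen after seeing the data. In HDM replicates 1 and 2 only 25 tested members each lay above their own mean over the 15 libraries, and Rps14 was low there. Leaving these HDM libraries out raises the HDM level of such members by construction.

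The comparison of MSCs on day 6 with HDM alone asks what remains of an early dose. No member passed with all 15 libraries (edgeR), where 0.00511% of all tested genes were called higher and 0.092% lower. At an unadjusted p under 0.05, 10 members were higher (12.8%, against 5.88% of all tested genes) and 6 lower (7.69%, against 7.98%). DESeq2 called 2 of 77 members higher and 4 lower, where it called 0.857% of all genes higher and 2.97% lower. Limma voom called 1 of 78 higher and 4 lower, where it called 0.567% of all genes higher and 1.96% lower. The median of the members was 0.09 and that of all tested genes 0.01, with 52 members above 0, as were 52.2% of all tested genes. This comparison shares its HDM libraries with the one above, so values for the same genes are not independent.

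Members lay on both sides of HDM. Rps28 had 136, 117, 136, 119 and 123 CPM in the day 6 group, all below the lowest HDM value of 156 CPM, with a log2 fold change of -0.51 (SE 0.10, edgeR adjusted p = 0.0768). Rpl28 had 227, 189, 230.1, 204 and 207 CPM, below 258 CPM, at -0.40 (SE 0.08, adjusted p = 0.0769). Rpl38 differed from these, with 73.0, 68.7, 82.4, 75.1 and 74.2 CPM, which overlapped HDM. On the higher side, Rplp2, the acidic stalk protein that pairs with Rplp1, had 236, 206, 219.9, 239 and 256 CPM, against 151, 175, 189.7, 194 and 173 CPM in HDM. All 5 day 6 libraries lay above all HDM libraries, at a log2 fold change of 0.39 (SE 0.10, edgeR adjusted p = 0.104). Rps23, a protein of the decoding centre, had 219, 198, 237, 229 and 229 CPM against 143, 158, 202, 192 and 171 CPM in HDM, so that the groups touched, at 0.36 (SE 0.10, adjusted p = 0.12). Rps9, Rpl9 and Rpl8 had log2 fold changes of 0.51, 0.42 and 0.44, with adjusted p of 0.238, 0.276 and 0.314. For these 3, HDM replicates 1 and 2 were the lowest of the 15 libraries: Rps9 had 174 and 167 CPM there and 235 to 406 CPM elsewhere.

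By non-overlap, 6 members lay lower in the day 6 group (7.69%, where 3.45% of all tested genes did) and 1, Rplp2, higher (1.85% of all tested genes did). They included Rpl17, Rpl28, Rpl41, Rps26 and Rps28. Without day 13 replicate 3, which enters the shared estimate of the spread, 6 members were called (7.69%), where 0.483% of all tested genes were higher and 1.72% lower. Among them Rpl28 at -0.39 (edgeR adjusted p = 0.0237), Rps28 at -0.50 (0.0267) and Rps26 at -0.38 (0.044) fell, while Rplp2 at 0.39 (0.0409) and Rps23 at 0.36 (0.0484) rose. Without HDM replicates 1 and 2 no member was called (0.00998% of all tested genes were lower and 0.0% higher), and the median of the members changed from 0.09 to -0.02, with 35 above 0. Of all tested genes 52.2% lay above 0 in that fit. Most members were low in those 2 HDM libraries, so leaving them out lowers the members' median by construction. With single libraries left out the members' median stayed positive, from 0.04 to 0.14. Without all 3 libraries 5 members were lower (6.41%, where 2.05% of all tested genes were lower and 0.434% higher) and 0 higher.

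The direct comparison of the 2 times of dosing called no member and no gene (edgeR, 0.0% in either direction). At an unadjusted p under 0.05, 3 members were lower on day 13 (3.85%, against 2.38% of all tested genes) and 0 higher (against 5.36%). DESeq2 and limma voom called no member either, and 0.0119% and 0.00511% of all genes lower. Without HDM replicates 1 and 2, which enter only the shared scaling and spread, 13 members were lower at an unadjusted p under 0.05 (16.7%, against 2.9% of all tested genes), and without all 3 libraries 21 (26.9%, against 4.44%). No member was called in either of these fits (edgeR). Nevertheless 73 of 78 members lay below 0, that is lower in the day 13 than in the day 6 group. Of all tested genes 48.6% did. The members' median was -0.15 against 0.01 for all tested genes. Without day 13 replicate 3, 77 of 78 members lay below 0, with a median of -0.13 (all tested genes 47.9% and 0.01). The members below 0 were 73 of 78 without the 2 HDM libraries (median -0.14, all tested genes 46.2% and 0.02). Without all 3 libraries they were 77 of 78 (median -0.15, all tested genes 52.3% and -0.01). Members share libraries, so that a single library moves many of them at once, and no test was run on the median. Leaving out each library in turn gave medians of -0.21 to -0.11. The smallest p belonged to Rpl38 at -0.20 (SE 0.08), Rps23 at -0.24 (SE 0.10) and Rps3, which lies at the mRNA entry, at -0.20 (SE 0.09), each with an edgeR adjusted p of 0.623. No member separated the 2 groups without overlap, where 1.06% of all tested genes lay higher and 1.04% lower.

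**Figure D5:**
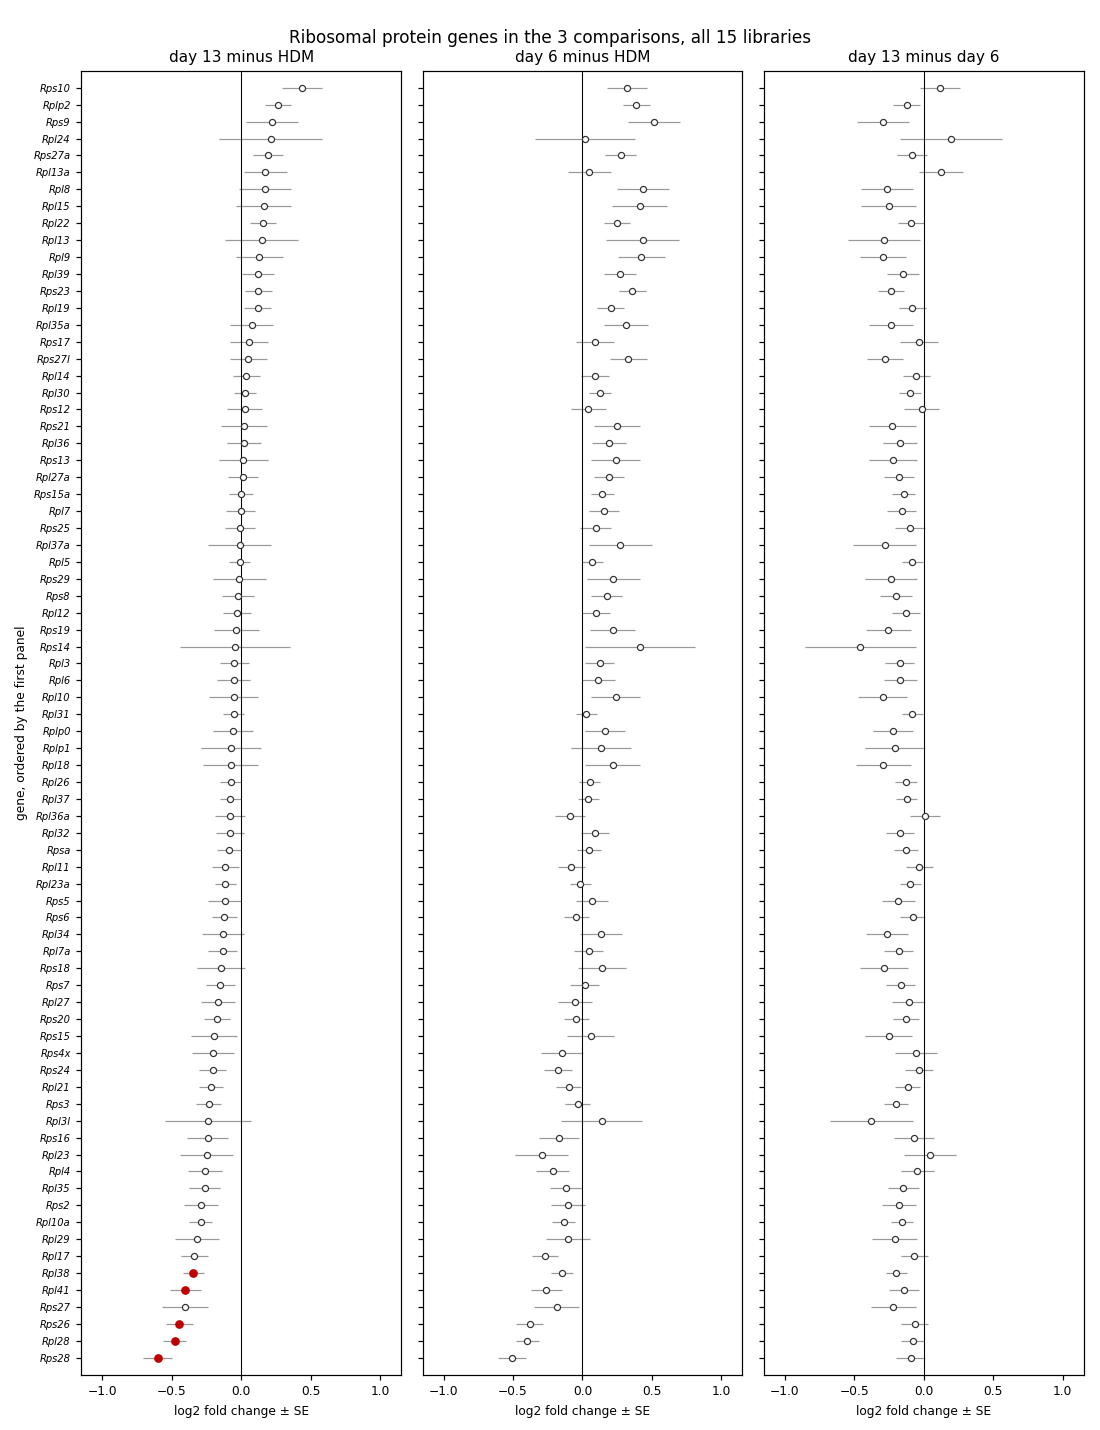
Log2 fold change ± SE of tested ribosomal protein genes for day 13 minus HDM, day 6 minus HDM and day 13 minus day 6, all 15 libraries, ordered by the first panel. Red points passed an adjusted p of 0.05 and are all in the first panel (Rps28, Rpl28, Rps26, Rpl41 and Rpl38); in the third panel most points lie left of 0.

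Both subunits held members that fell. In the day 13 group 4 of 47 tested large-subunit members and 2 of 31 small-subunit members fell against HDM, where 2.89% of all tested genes fell, with medians of -0.06 and -0.08. These were 6 and 4 without day 13 replicate 3, where 3.36% of all tested genes fell. Against HDM the day 6 medians were 0.09 and 0.07. The stalk proteins Rplp0, Rplp1 and Rplp2 had log2 fold changes of -0.06, -0.07 and 0.27 on day 13 and 0.16, 0.13 and 0.39 on day 6, none of them past the test. Of 29 tested members with annotated snoRNAs or scaRNAs between their start and end, on either strand, 1 fell on day 13, and of 49 without, 5 fell. The counts were 4 and 6 without day 13 replicate 3, and the difference between these kinds of gene was not tested.

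Of the members known for roles outside the ribosome or in disease, Rpl5, Rpl11, Rps6, Rpsa, Rps19 and Rpl22 passed the test in no comparison with all libraries. Rpl5 and Rpl11, which with 5S RNA bind Mdm2 when ribosome assembly fails, had log2 fold changes on day 13 of -0.01 (SE 0.08, edgeR adjusted p = 0.952) and -0.11 (SE 0.10, adjusted p = 0.507). Rpl5 varied least among these, with 236 ± 4.53 CPM in HDM, 248 ± 19.5 CPM in the day 6 group and 234 ± 19.8 CPM in the day 13 group (n = 5 each). Rps6, the substrate of S6 kinase, was at -0.12 on day 13 (SE 0.09, adjusted p = 0.442), and Rpsa, also known as a laminin receptor, at -0.08 (SE 0.09, adjusted p = 0.591). Rps19, the gene most often mutated in human Diamond-Blackfan anaemia, had 119 and 97.8 CPM in HDM replicates 1 and 2, 93.7 CPM in day 13 replicate 3 and 147 to 182 CPM in the other 12 libraries. Rpl22, needed for T-cell development in mice, had 157 CPM in day 13 replicate 3, the highest of the 15, and 103 to 151 CPM elsewhere.

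Few genes of the wider translation machinery passed for day 13 against HDM, where 2.89% of all tested genes fell and 1.9% rose. Of 7 tested ribosomal proteins outside the symbol rule, 1 fell and 0 rose: Fau, which encodes a ubiquitin-like protein fused to small-subunit protein S30, at -0.45 (SE 0.09, edgeR adjusted p = 0.0163), from 189 ± 16.8 to 138 ± 15.2 CPM (n = 5 each). Of 25 translation factors and other TOP mRNAs, 1 fell and 0 rose (median -0.13): Eif3k, a subunit of initiation factor eIF3, at -0.60 (SE 0.11, adjusted p = 0.0131). Without day 13 replicate 3, 3 of these fell, with Eif3l and the poly(A)-binding protein gene Pabpc1 added. In that fit 3.36% of all tested genes fell and 3.23% rose. Of 40 ribosome biogenesis factors and 14 genes of RNA polymerase I, 0 passed in either direction (medians -0.02 and 0.01). Of 17 genes of mTOR signalling and TOP regulation, 2 fell and 0 rose (median -0.07): Eif4ebp2, which holds back the cap-binding factor eIF4E, at -0.33 (SE 0.08, adjusted p = 0.0243), and Max, the partner of Myc, at -0.35 (SE 0.08, adjusted p = 0.0274). Eif4ebp2 fell in the day 6 group as well, by 0.44 (SE 0.08, adjusted p = 0.0382), and was the only one of these lists' genes called there. In that comparison 0.092% of all tested genes were called lower and 0.00511% higher. Of 77 tested mitochondrial ribosomal proteins, which serve the ribosome inside mitochondria, 2 rose and 3 fell (median 0.00), shares near those of all tested genes. Mrps25 was at 0.40, Mrpl33 at 0.39, Mrps2 at -0.42, Mrpl22 at -0.43 and Mrpl12 at -0.45. With HDM replicates 1 and 2 left out, Mrpl33 was the 1 gene of these lists still called on day 13 (adjusted p = 0.0433). That fit called 0.509% of all tested genes higher and 0.404% lower. In the direct comparison of day 13 with day 6 none of these lists had a gene past the test, and the medians were -0.10, -0.08, 0.01, 0.01, 0.00 and -0.08 in the order above.

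Markers of other cells moved between the groups as well. B-cell markers summed to 267 to 314 CPM in HDM, 168 to 224 CPM in the day 6 group and 102 to 206 CPM in the day 13 group, with 4 of 6 lower on day 13 (Cd79b, Ms4a1, Fcmr and Cd79a), where 2.89% of all tested genes were lower and 1.9% higher. Plasma-cell markers ran from 1978 to 8742 CPM, from 992 to 2899 CPM and from 796 to 3274 CPM, with 1 of 5 lower (Igkc). Neutrophil markers ran from 102 to 145 CPM, from 89.9 to 118 CPM and from 40.3 to 103 CPM, with 2 of 5 lower (Retnlg and Mmp8). T-cell markers, 0 of 6 called, had 654 CPM in day 13 replicate 3 and at most 90.9 CPM elsewhere, and of the thymocyte markers 1 of 4 tested, Rag1, was higher with that library and not without it. Lung tissue markers (0 of 7 called) ran from 18662 to 24810 CPM, from 16924 to 20723 CPM and from 10517 to 19268 CPM, and skeletal muscle markers were at most 11.04 CPM (0 of 2 tested called). Without day 13 replicate 3, the call of Igkc was lost (edgeR adjusted p = 0.0721), and Trac of T cells and Cdh5 of lung tissue were among those lower as well (adjusted p = 0.0215 and 0.0392). That fit called 3.36% of all tested genes lower and 3.23% higher. Without HDM replicates 1 and 2, 1 of these marker genes was called, Cd79b (adjusted p = 0.0433), where 0.404% of all tested genes were lower and 0.509% higher. The part of these cells in the ribosomal protein values was not tested.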

How the data were processed

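The authors deposited whole-number counts for each Ensembl gene and library, aligned with STAR 2.5.3a to GRCm38 per the submitters' processing notes. No counter, strand option or annotation version is stated, and reads of near-identical pseudogenes, overlapping genes and antisense genes may be split or shared between members and other rows. Lung RNA with an integrity number above 8 was used, per the labels' protocols.

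Genes were filtered with filterByExpr and tested in edgeR 4.0.16 with the 15 libraries fitted together (TMM factors, robust quasi-likelihood tests, R 4.3.3). p-values are two-sided and adjusted over all 19562 tested genes, and a call is an adjusted p under 0.05. CPM use TMM-scaled library sizes, and log2 CPM a pseudocount of 0.1. Alternatives were RLE and upper-quartile factors, no filter, a mean of at least 1 CPM, DESeq2 1.42.0, limma 3.58.1 voom with quality weights, no robust shrinkage, only the 10 libraries compared, a fold of at least 1.5, and libraries left out. The tests were tried on simulated data.

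The members and all gene lists were chosen with earlier results of these data known. Named members are those called or, where fewer than 5 were, the 5 of lowest p on either side, with and without short-term replicate 3, together with the 6 highest and 4 lowest per length, the 3 of largest SD, paralog pairs and landmark genes. Other members were named after their values were seen. Some members are counted in the totals but not reported here by name or drawn in the plots of single genes. Promoter windows are RefSeq's. Intervals and floors cover counting error only. Figures were drawn with matplotlib 3.10.9 in Python 3.11.15.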

Additional observations from a re-analysis of the deposited data

Results flagged for a closer look

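In 129 groups of 5 libraries tested for a library far from the rest (named members and the share of counts), 8 were marked, where chance marks about 1 in 20. The figure after each is the gap to the nearest library divided by the range of the group, with a limit of 0.71. Day 13 replicate 3 was highest for Rpl24 (0.852) and lowest for Rps14 (0.765) and Rps19 (0.745). Day 13 replicate 4 was highest for Rplp0 (0.727) and Rplp2 (0.711). Day 6 replicate 2 was lowest for Rplp0 (0.718), Rps4x (0.722) and the members' share of all counts (0.718).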

How the results depend on the processing

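No paired analysis was possible because replicate numbers follow accession order and pair nothing. For day 13 against HDM the 6 calls became 11 with DESeq2, 18 with limma voom (17 lower and 1 higher), 0 with only the 10 libraries compared (adjusted p 0.0784 to 0.150 for the 6), 2 without HDM replicates 1 and 2, 18 without those and short-term replicate 3 (chosen after seeing the data) and 1 at a fold of at least 1.5. Leaving out single libraries gave 3 (without day 13 replicate 5) to 10 (without day 13 replicate 3). With upper-quartile factors and with no filter 4 were called, without Rpl38 and Rpl41, and with upper-quartile factors the median was -0.00048 while that of all tested genes was 0.09. For day 6 against HDM the 0 calls became 6 with DESeq2, 5 with limma voom, 5 without the 3 libraries and 0 to 6 with single libraries left out (1 without HDM replicate 3, 6 without day 13 replicate 3). The share of all tested genes called is not given for the fits with only the 10 libraries compared, a fold limit, upper-quartile factors or no filter. It is also not given for single libraries left out other than day 13 replicate 3. Those counts do not show whether the members alone or all genes changed. Members' medians over single libraries left out ran from -0.14 to -0.0099 for day 13 and from 0.04 to 0.14 for day 6. The share of counts became 1.80% in HDM and 1.89% in the day 6 group over protein-coding counts. Of the values of single named genes, 2939 kept side and call, 123 changed sign with no call in either fit, 48 gained a call and 31 lost one, and none changed sign while called. The cause of these changes was not tested. Depth allowed at most 0.188 CPM for a gene at 0.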
